A study of Homo sapiens with 6 samples.

Results

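BCWM1 is an established human cell line from Waldenström macroglobulinemia, a B lineage lymphoma whose cells secrete IgM, and 9 genes best known from T lymphocytes or linked to them were followed in it. They were BCL11B, BCL11A, TRAT1, LCK, LAT, CD28, ZAP70, PRF1 and GZMB. They are 9 of the 19775 genes that a probe set of 1 symbol measures, and they were read on 20 of the 54613 probe sets on the arrays, those that the platform annotation assigns to one of these genes alone. The genes were chosen by their difference between mutated and parental cells on these arrays, for the changes of BCL11B, TRAT1 and LCK, so these differences are described here without a test. Total RNA was hybridised on 6 arrays, 3 of BCWM1 cells labelled mutated and 3 of BCWM1 cells labelled parental. In the title of the series the mutation is written C1013G and placed in CXCR4, a chemokine receptor. The sources used here do not give how the mutated cells were made or whether they are 1 clone. Nothing marks the samples of a group as separate cultures, so p-values cover only the spread among these arrays, and that spread may be technical.

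The T cell receptor signals through kinases and scaffolds at the inner face of the membrane. LCK, a Src family kinase, phosphorylates the receptor's CD3 and zeta chains, ZAP70 docks there, and ZAP70 in turn phosphorylates the scaffold LAT. TRAT1 is a small transmembrane adaptor that associates with the receptor, and CD28 is the costimulatory receptor for CD80 and CD86. BCL11B is a zinc finger transcription factor that T cell progenitors need in order to commit to their lineage, while its relative BCL11A is needed for B cell development. PRF1 encodes perforin and GZMB granzyme B, the pore former and the protease of killer cell granules. B cells run a parallel pathway with the kinases LYN, BLK and SYK, and some B cell neoplasms express LCK or ZAP70.

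The upstream sequences of BCL11B, TRAT1 and LCK are shown because these are the genes for which the set was chosen. Each run is the 250 bases before a RefSeq start on GRCh38.p14, read 5′ to 3′ on the gene's strand. BCL11B lies at chr14:99272198-99272447 on the minus strand, TRAT1 at chr3:108822536-108822785 on the plus strand, and LCK has 2 listed starts on the plus strand, at chr1:32251015-32251264 and chr1:32273871-32274120. Capitals mark matches, on either strand, to 6 motifs: AGGAAG for ETS factors, TGTGGT for RUNX factors, CANCTG for E box factors, CTTTGA for TCF/LEF factors, AGATAA for GATA factors and TGACCA for BCL11 proteins.
BCL11B: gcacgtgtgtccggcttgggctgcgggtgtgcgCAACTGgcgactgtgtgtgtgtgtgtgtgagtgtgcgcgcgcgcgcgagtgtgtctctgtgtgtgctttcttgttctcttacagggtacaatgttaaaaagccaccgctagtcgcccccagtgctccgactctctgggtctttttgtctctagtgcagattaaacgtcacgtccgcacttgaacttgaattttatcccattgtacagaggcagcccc
TRAT1: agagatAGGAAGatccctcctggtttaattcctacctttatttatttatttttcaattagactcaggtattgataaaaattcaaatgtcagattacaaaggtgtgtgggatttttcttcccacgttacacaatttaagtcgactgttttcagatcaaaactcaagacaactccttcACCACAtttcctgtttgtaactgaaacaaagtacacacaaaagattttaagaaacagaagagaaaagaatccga
LCK upstream start: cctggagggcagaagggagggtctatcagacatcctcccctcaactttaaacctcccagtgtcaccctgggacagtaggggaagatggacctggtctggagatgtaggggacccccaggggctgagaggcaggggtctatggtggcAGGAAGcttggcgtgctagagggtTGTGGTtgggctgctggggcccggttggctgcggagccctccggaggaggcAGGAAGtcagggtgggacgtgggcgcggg
LCK downstream start: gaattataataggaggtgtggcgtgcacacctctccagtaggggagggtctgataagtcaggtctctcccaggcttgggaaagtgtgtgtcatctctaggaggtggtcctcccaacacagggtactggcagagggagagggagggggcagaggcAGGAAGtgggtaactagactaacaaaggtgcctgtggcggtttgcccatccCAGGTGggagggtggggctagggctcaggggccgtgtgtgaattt
The ETS letters stood in the TRAT1 window and in both LCK windows, with 2 matches at the upstream LCK start, and in 28.7% of the 35116 RefSeq windows of this length. The RUNX letters stood in the TRAT1 window and at the upstream LCK start, against 11.0% of all windows. The E box letters stood in the BCL11B window and at the downstream LCK start, against 42.5% of all windows. None of the 4 windows held the TCF/LEF letters (11.2% of all windows), the GATA letters (9.17%) or the BCL11 letters (9.19%). The last of these can overlap the RUNX letters, but did not in these windows. These matches describe letters in a window and say nothing of binding. All 9 genes had a RefSeq window, 17 in total.

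Values are the authors' intensities per probe set on a linear scale, and differences are log2(intensity + 16) in mutated minus parental cells with the standard error (SE) of the fit. Median intensity per array was 30.93 to 31.83 on the mutated arrays and 28.46 to 28.99 on the parental arrays, and no presence calls were used. Pearson's r across the tested probe sets, which are not independent replicates, lay between 0.994 and 0.996 for arrays of the same group and between 0.967 and 0.970 for arrays of different groups. In bulk RNA, fewer cells with a transcript and less transcript per cell cannot be told apart. Of the 20 probe sets, the 3 mutated values lay above the 3 parental values in 11, where 25.5% of all 54613 probe sets did so, and below them in 3, against 15.6% of all (41.2% in either direction). The other 6 overlapped. A filter that left out the dimmest 40% of probe sets was passed by 13 of the 20. Of these 13, those of BCL11B, BCL11A and TRAT1 passed only through the mutated samples, since their parental values alone would have fallen short.

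**Figure D1:**
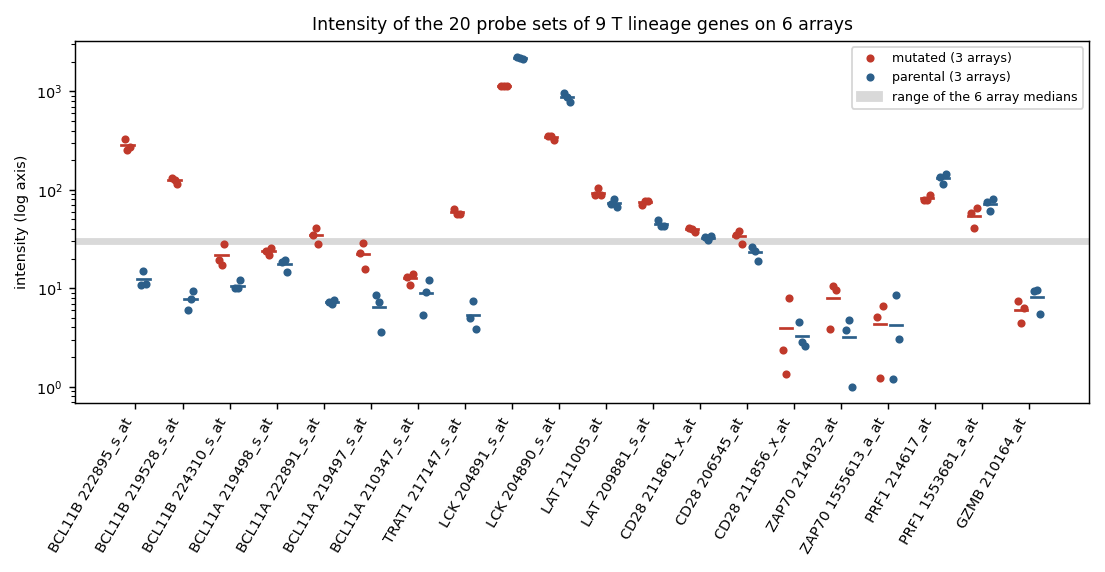
Intensity (log axis) of each of the 20 probe sets on the 3 mutated arrays (red, left) and the 3 parental arrays (blue, right), with lines at the group means and a grey band over the range of the 6 array medians. The 2 bright BCL11B probe sets and TRAT1 lie above the band in mutated cells and under it in parental cells, and both LCK probe sets are lower in mutated cells.

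BCL11B showed the widest separation. Probe set 222895_s_at had 327.92, 256.07 and 273.86 in mutated cells, against 10.79, 15.13 and 10.98 in parental cells. All 3 parental values were under every array median and all 3 mutated values were far above it. The log2 difference was 3.41 (SE 0.11), rank 49 among all probe sets ordered from the largest rise. Probe set 219528_s_at had 132.50, 126.64 and 115.42 in mutated cells, against 6.08, 7.82 and 9.29 in parental cells, a log2 difference of 2.57 (SE 0.078). The third, 224310_s_at, was dim throughout, with 19.60, 17.22 and 27.89 in mutated cells and 9.96, 9.96 and 12.01 in parental cells. Its groups did not overlap, but every value was under the highest array median and it did not pass the filter. The BCL11B probe sets therefore shared a direction and differed in size, from 0.49 to 3.41 on the log2 scale. With a pseudocount of 64 the bright pair gave 2.19 and 1.40, and with a pseudocount of 1 they gave 4.44 and 3.86, so the size of a difference from a dim baseline depends on that choice.

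BCL11A, the B lineage relative, was dim in both groups on its 4 probe sets. The clearest separation was on 222891_s_at, with 34.88, 41.16 and 28.12 in mutated cells and 7.23, 6.97 and 7.60 in parental cells, a log2 difference of 1.12 (SE 0.099). Here 2 of the 3 mutated values lay above every array median and the third under every one. Probe set 219497_s_at had 22.96, 28.78 and 15.73 in mutated cells, against 8.47, 7.29 and 3.58 in parental cells, and 219498_s_at had 24.08, 21.57 and 25.61 against 18.70, 19.26 and 14.59. The groups were apart on both, although every value was under the highest array median. On 210347_s_at the groups overlapped, with 13.15, 10.78 and 13.89 in mutated cells and 5.35, 9.16 and 12.20 in parental cells. BCL11A thus ran in the same direction as BCL11B on all 4 probe sets, with log2 differences from 0.21 to 1.12.

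The receptor-associated adaptor TRAT1 had a single probe set. Its values were 64.51, 56.51 and 56.23 in mutated cells, against 5.0, 7.36 and 3.83 in parental cells. The mutated values lay close together above every array median, and the parental ones were far under it. The log2 difference was 1.81 (SE 0.084), 1.73 after quantile normalization or median centring of the arrays, 0.83 with a pseudocount of 64 and 3.27 with a pseudocount of 1.

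LAT, the scaffold downstream of ZAP70, was moderately above the array medians in both groups. Probe set 209881_s_at had 70.03, 77.43 and 77.85 in mutated cells, against 49.11, 43.27 and 42.65 in parental cells, a log2 difference of 0.58 (SE 0.069). Probe set 211005_at had 88.54, 103.21 and 87.81 in mutated cells, against 72.22, 80.33 and 66.83 in parental cells, a log2 difference of 0.29 (SE 0.087). The groups did not overlap on either. The smaller difference was 0.10 after quantile normalization, so it depends on the scaling of the arrays.

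LCK was the one bright gene of the set, and it ran the other way. Probe set 204891_s_at had 1122.36, 1137.67 and 1142.26 in mutated cells, against 2220.16, 2157.40 and 2122.11 in parental cells, a log2 difference of −0.92 (SE 0.050). Probe set 204890_s_at had 354.56, 348.83 and 322.55 in mutated cells, against 971.74, 875.12 and 779.16 in parental cells, a log2 difference of −1.31 (SE 0.092). Both groups were tight and far apart on both probe sets, and LCK stayed bright in mutated cells. Its differences hardly moved with the pseudocount (−0.90 and −1.21 at 64, −0.93 and −1.35 at 1).

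ZAP70, the kinase that partners LCK in T cells, was at the floor of the arrays. Probe set 214032_at had 3.84, 10.47 and 9.56 in mutated cells and 3.78, 4.78 and 1.00 in parental cells, and 1555613_a_at had 5.10, 1.23 and 6.61 against 1.20, 8.51 and 3.07. The groups overlapped on both probe sets, and neither passed the filter. The sign of the second one changed in 6 of the settings tried.

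CD28 was dim too. On 206545_at it had 35.05, 37.98 and 28.18 in mutated cells, against 26.51, 24.02 and 18.86 in parental cells, a log2 difference of 0.35 (SE 0.11). On 211861_x_at it had 41.33, 40.30 and 37.37 in mutated cells, against 33.00, 30.74 and 34.14 in parental cells, a log2 difference of 0.20 (SE 0.058), or 0.095 after quantile normalization. These values lie close to the array medians, and the groups were narrowly apart. The remaining probe set, 211856_x_at, was at the floor with 2.39, 1.36 and 8.05 in mutated cells and 4.51, 2.83 and 2.60 in parental cells, and its groups overlapped.

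Of the killer cell effectors, perforin gave signal in both groups and granzyme B lay at the floor. PRF1 probe set 214617_at had 78.16, 79.31 and 89.15 in mutated cells, against 134.55, 114.38 and 144.63 in parental cells, a log2 difference of −0.58 (SE 0.095) with no overlap. PRF1 probe set 1553681_a_at had 57.59, 40.55 and 65.64 in mutated cells and 74.96, 60.40 and 80.95 in parental cells, which overlap, with a log2 difference of −0.33 (SE 0.16), or −0.18 without mutated replicate 2. The single GZMB probe set had 7.37, 4.42 and 6.26 in mutated cells and 9.38, 9.52 and 5.45 in parental cells, which overlap as well.

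**Figure D2:**
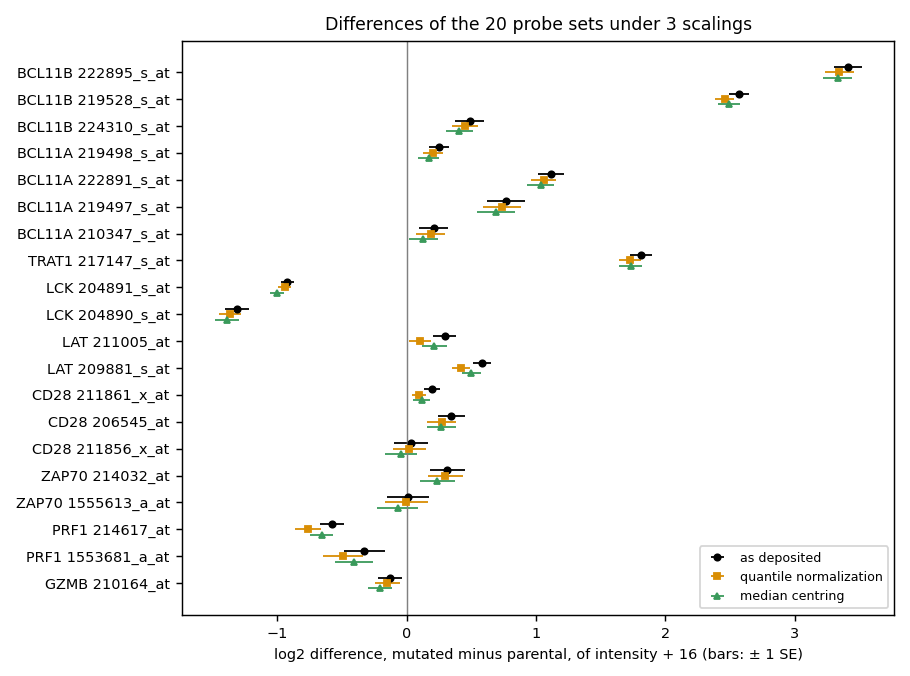
Log2 difference of intensity + 16, mutated minus parental, with bars of 1 SE, for the 20 probe sets with the values as deposited (black), after quantile normalization (orange) and after median centring (green). BCL11B and TRAT1 lie to the right, both LCK and both PRF1 probe sets to the left, and the sign is the same under the 3 scalings in all but the floor-level CD28 and ZAP70 probe sets 211856_x_at and 1555613_a_at.

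Genes around these 9 were then compared from 9 lists, with limma over 32768 probe sets and Benjamini-Hochberg adjustment at a threshold of 0.05. Each gene was represented by its brightest tested probe set. Of these probe sets 47.5% were called, 30.9% higher and 16.6% lower in mutated cells. Over all 13644 genes tested, 49.0% were called, and 30.1% were called higher and 18.9% lower in mutated cells, with a median log2 difference of 0.04. These shares were 24.9% and 25.6% after quantile normalization, and 22.4% and 26.1% after median centring. Counts in the lists are read beside these shares, and the lists were written with earlier results of these data known.

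Of 12 T cell markers with a probe set, 7 had both group means under the highest array median. CD3D, CD3E, CD3G, CD4, CD5 and CD8A encode surface proteins of T cells. These 6 genes reached at most 27.4 on a mutated array and 26.4 on a parental array, under every array median. None passed the filter. Of 12 markers with a probe set, 6 were tested, 0 rose, 1 fell and 5 did not pass (median −0.14), and limma gave 0 rises at an unadjusted p under 0.05 too. The one that fell was TRBC1, a constant segment of the T cell receptor beta chain, with 369.35, 332.97 and 326.84 in mutated cells, against 685.76, 649.98 and 687.92 in parental cells. Its log2 difference was −0.94 (SE 0.063; limma, adjusted p = 6.0e-05), and its 2 other probe sets gave −0.99 and −0.93, though TRBC2 is nearly identical and can bind the same probes. CD247 lay above every array median, at 77.6 in mutated and 66.8 in parental cells (means of 3 arrays). The CD247 groups were apart, with a log2 difference of 0.18 (limma, adjusted p = 0.093). CD8B (means 51.5 and 65.3), CD6 (36.2 and 58.1) and CD2 (43.9 and 31.4) overlapped between mutated and parental cells. The summed intensity of the 12 markers was 600.0 to 670.0 in mutated cells and 947.8 to 1028 in parental cells, and without TRBC1 it was 267.0 to 335.3 and 297.8 to 340.3, with overlap. No value of any list was 0.

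Genes of T cell receptor signalling moved in both directions. Of 28 tested, 7 rose, 10 fell and 11 did not pass (median 0.04). PAG1, a transmembrane adaptor that holds CSK near Src family kinases, had 1119.16, 1028.45 and 1049.47 in mutated cells, against 89.08, 93.46 and 85.43 in parental cells, a log2 difference of 3.36 (SE 0.057; limma, adjusted p = 3.5e-07). Its 2 other tested probe sets gave 0.66 and 3.37. SIT1, another transmembrane adaptor, rose to 1475 ± 20.2 in mutated cells, against 757.9 ± 8.82 in parental cells (SD, n = 3 arrays; limma, adjusted p = 1.3e-05). PTPRC encodes CD45, the phosphatase that activates LCK, and it fell to 2047 ± 56.8 in mutated cells, against 4644 ± 31.9 in parental cells (SD, n = 3 arrays; limma, adjusted p = 6.3e-06). Its 4 other probe sets ran from −1.55 to −0.51. PTPN7, a phosphatase of MAP kinases, fell to 215.8 ± 19.2 in mutated cells, against 566.5 ± 8.29 in parental cells (SD, n = 3 arrays; limma, adjusted p = 2.1e-05), but its other probe set gave −0.24 and did not pass when it stood for the gene (limma, adjusted p = 0.077). The other 5 that rose, outside the naming rule for this list, were LAX1 (0.63), RHOH (0.56), LIME1 (0.54), PLCG1 (0.52) and NCK1 (0.32). The other 8 that fell ran from RASGRP1 (−0.71) to DGKA (−0.18). Among them was LCP2 (−0.21), whose 5 other probe sets ran from −0.25 to 0.67. THEMIS did not pass the filter. It was lower in mutated cells with the groups apart, at 4.50, 9.69 and 5.74 against 19.92, 27.47 and 26.49, all under every array median.

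Transcription factors of the T lineage were likewise mixed. Of 16 tested, 6 rose, 5 fell and 5 did not pass (median −0.05). HES1, a repressor induced by Notch, rose to 558.0 ± 34.7 in mutated cells, against 178.8 ± 8.38 in parental cells (SD, n = 3 arrays), a log2 difference of 1.56 (limma, adjusted p = 7.4e-06). ID3, an inhibitor of E proteins, rose by a log2 difference of 0.47 (limma, adjusted p = 3.4e-04). PRDM1 encodes Blimp-1, which B cells use for plasma cell formation, and it fell to 105.4 ± 3.32 in mutated cells, against 348.7 ± 16.4 in parental cells (SD, n = 3 arrays; log2 difference −1.59; limma, adjusted p = 3.6e-06). Its 2 other probe sets gave −0.96 and −0.50, and the mean over its probe sets −1.02. IKZF1 encodes Ikaros, a factor of lymphoid development, and it fell by a log2 difference of −0.77 (limma, adjusted p = 3.3e-05), with −1.07 to −0.08 on its 6 other probe sets. The other 4 that rose, outside the naming rule, were GATA3 (0.48), EOMES (0.38), IKZF2 (0.28; its other probe sets gave 1.03 and 1.24) and TCF12 (0.14). The others that fell, also outside it, were MYB (−0.50; 0.10 on its other probe set), TOX2 (−0.30) and ZEB1 (−0.24). The 3 other probe sets of ZEB1 ran from −0.49 to 0.28. LEF1, TOX, SATB1 and FOXP3 did not pass the filter. FOXP3 was higher in mutated cells with the groups apart, at 16.87, 17.34 and 23.59 against 10.81, 9.11 and 7.57, all under every array median.

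Receptors of T and natural killer (NK) cells held large differences both ways. Of 14 tested costimulatory and cytokine receptors, 3 rose, 7 fell and 4 did not pass (median −0.12). IL7R, the receptor of interleukin 7, had 259.11, 267.14 and 248.88 in mutated cells, against 18.90, 16.91 and 14.60 in parental cells, a log2 difference of 3.07 (SE 0.064; limma, adjusted p = 5.9e-07). Its parental values alone would have fallen short of the filter, so it was tested only through the mutated samples. LAG3, an inhibitory receptor, rose to 226.8 ± 11.8 in mutated cells, against 33.7 ± 9.30 in parental cells (SD, n = 3 arrays; limma, adjusted p = 3.7e-05), and TNFRSF9 (4-1BB) rose by a log2 difference of 1.13. TIGIT, an inhibitory receptor, had 49.64, 59.17 and 59.25 in mutated cells, against 382.45, 343.74 and 385.74 in parental cells, a log2 difference of −2.43 (SE 0.078; limma, adjusted p = 2.7e-06). CD226, the activating receptor that shares ligands with TIGIT, had 263.36, 247.72 and 285.00 in mutated cells, against 1350.33, 1464.12 and 1488.29 in parental cells, a log2 difference of −2.37 (SE 0.069; limma, adjusted p = 1.9e-06). Both members of this receptor pair were therefore lower in every mutated sample. The other 5 that fell were IL2RA (−1.58), TNFRSF4 (−1.11), TNFRSF18 (−0.81), BTLA (−0.50) and IL2RB (−0.21). For TNFRSF4 another probe set gave −0.005. LAG3 and these 5 lie outside the naming rule.

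Cytotoxic granule genes other than PRF1 and GZMB were tested in 14 cases, of which 3 rose, 5 fell and 6 stayed short of the threshold (median −0.11). RAB27A, a GTPase of granule docking, fell to 1019 ± 36.8 in mutated cells, against 2492 ± 29.4 in parental cells (SD, n = 3 arrays; log2 difference −1.28; limma, adjusted p = 5.5e-06). SERPINB9, the inhibitor of granzyme B, fell by −0.77 on the log2 scale (limma, adjusted p = 3.2e-05). With them, UNC13D (−0.42), LAMP1 (−0.36, with −0.38 to 0.03 on its 3 other probe sets) and STX11 (−0.34), which serve granule release or lysosomes, were lower. The 3 that rose were GZMK (0.70), CRTAM (0.31) and TNFSF10 (0.19). After quantile normalization or median centring the count was 2, since TNFSF10 lost its call and the others kept theirs. The 2 other probe sets of TNFSF10 gave 0.35 with the values as deposited. CTSC stayed short of the threshold on its brightest probe set (0.007), but its 3 other probe sets gave 0.75 to 1.00. GZMK, a granzyme, was dim, with 45.14, 38.60 and 37.00 in mutated cells and 22.32, 18.66 and 15.16 in parental cells. GNLY, GZMH and GZMM did not pass the filter, and GZMA overlapped between the groups. GZMM was higher in mutated cells with the groups apart, at 17.81, 22.94 and 27.12 against 14.30, 9.92 and 13.57, all under every array median.

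Of 7 NK cell markers tested, 3 fell, 0 rose and 4 stayed short of the threshold (median −0.15). At an unadjusted p under 0.05 the limma count of rises was 0. XCL1, a chemokine of NK and T cells, had 354.22, 339.75 and 327.48 in mutated cells, against 1404.15, 1469.26 and 1409.28 in parental cells, a log2 difference of −2.02 (SE 0.052; limma, adjusted p = 1.1e-06). Its near-identical relative XCL2 can bind the same probes, and another XCL1 probe set gave −1.20. NCR3, the activating receptor NKp30, had 101.37, 101.67 and 112.46 in mutated cells, against 390.32, 425.73 and 389.54 in parental cells, a log2 difference of −1.79 (SE 0.063; limma, adjusted p = 3.8e-06). KLRF1, the receptor NKp80, fell as well (−1.31), while NCR1, KLRD1 and NCAM1, also receptors of NK cells, overlapped between the groups. Among markers that did not pass the filter, KLRC3 was higher in mutated cells and KLRB1 lower, each with the groups apart. KLRC3 had 28.26, 26.32 and 16.87 in mutated cells, against 5.48, 3.95 and 6.09 in parental cells. KLRB1 had 6.14, 7.45 and 9.75 against 12.67, 11.11 and 13.34. All these values were under every array median. The summed intensity of the 12 NK markers was 702.3 to 753.9 in mutated cells and 2127 to 2189 in parental cells. Without XCL1 it was 362.6 to 426.5 in mutated cells and 720.1 to 738.2 in parental cells. That smaller sum still held NCR3 (means 105.2 in mutated and 401.9 in parental cells) and KLRF1. KLRF1 had 19.91, 22.98 and 17.1 in mutated cells, against 71.85, 72.1 and 74.65 in parental cells. A sum that also left out NCR3 and KLRF1 was not taken, so these sums show no fall in the other NK markers.

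**Figure D3:**
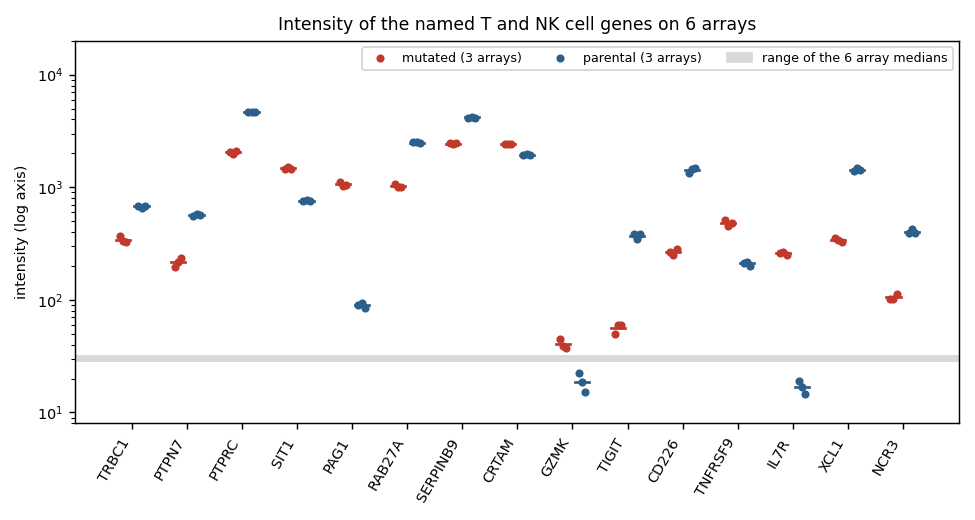
Intensity (log axis) of the genes named by rule in the lists of T cell markers, T cell receptor signalling, cytotoxic granules, costimulatory receptors and NK cell markers, on the 3 mutated arrays (red, left) and the 3 parental arrays (blue, right), with lines at the means and a grey band over the array medians. IL7R and PAG1 are the genes farthest up in mutated cells, TIGIT, CD226, XCL1 and NCR3 those farthest down, and the groups are apart in each gene shown.

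Most B cell identity genes were bright in both groups, with the exception of VPREB3, a pre-B cell gene that had 38.03, 43.70 and 51.99 in mutated cells and 19.93, 21.32 and 17.60 in parental cells. Of 14 markers tested, 6 rose, 4 fell and 4 did not pass (median 0.06). The surface antigen MS4A1 (CD20) had 10516.43, 10309.35 and 9872.76 in mutated cells, against 10287.57, 10634.65 and 10354.37 in parental cells, and the factor PAX5 had 5264.13, 5172.13 and 5126.34 against 4823.49, 5198.08 and 4819.75. These 2 and EBF1 overlapped between the groups. FCRLA (1.02) and CR2 (1.02) rose. BLK, given below with the kinases, had the largest difference of these markers and fell (−1.57), and SPIB (−0.45; −0.007 on its other probe set) fell too. The summed intensity of the 14 markers was 39859 to 40885 in mutated cells and 40411 to 41280 in parental cells. Of 6 myeloid markers tested, 1 rose (S100A9, 1.99) and 0 fell (limma; at an unadjusted p under 0.05 1 fell). The 10 myeloid markers with a probe set, tested or not, summed to 4727 to 4884 in mutated cells and 3002 to 3072 in parental cells. Without S100A9 they summed to 1924 to 2168 and 2308 to 2428, most of it from MNDA, while CD14, CD163 and LYZ were at the floor. The part of other cells in the differences above was not tested.

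Kinases, adaptors and related signalling genes present in B cells were measured as well. They include counterparts of LCK, ZAP70 and LAT, but not all are counterparts, and some also stand in the lists above. Of 13 tested, 2 rose, 3 fell and 8 did not pass (median −0.04). BLK, the Src family kinase typical of B cells, had 433.91, 439.66 and 443.98 in mutated cells, against 1404.83, 1290.12 and 1309.30 in parental cells, a log2 difference of −1.57 (SE 0.052; limma, adjusted p = 3.1e-06). FGR (−0.46) and SRC (−1.10; −0.10 on its other probe set) fell too. LYN and YES1, of the same kinase family, and LAT2, the B cell counterpart of LAT, overlapped between the groups. FYN, another Src family kinase, had a log2 difference of 0.15 with the groups apart (limma, adjusted p = 0.052), and its 4 other probe sets gave 0.26 to 1.00. SYK, the B cell counterpart of ZAP70, had 0.15 with the groups apart (limma, adjusted p = 0.064), and its 3 other probe sets gave 0.28 to 0.34. The count of rises therefore depends on the probe set taken, and was 4 when probe sets were averaged per gene and 5 without probe sets of suffix _s_at or _x_at. The 2 that rose were PAG1 and LAX1, given above and already counted in T cell receptor signalling.

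**Figure D4:**
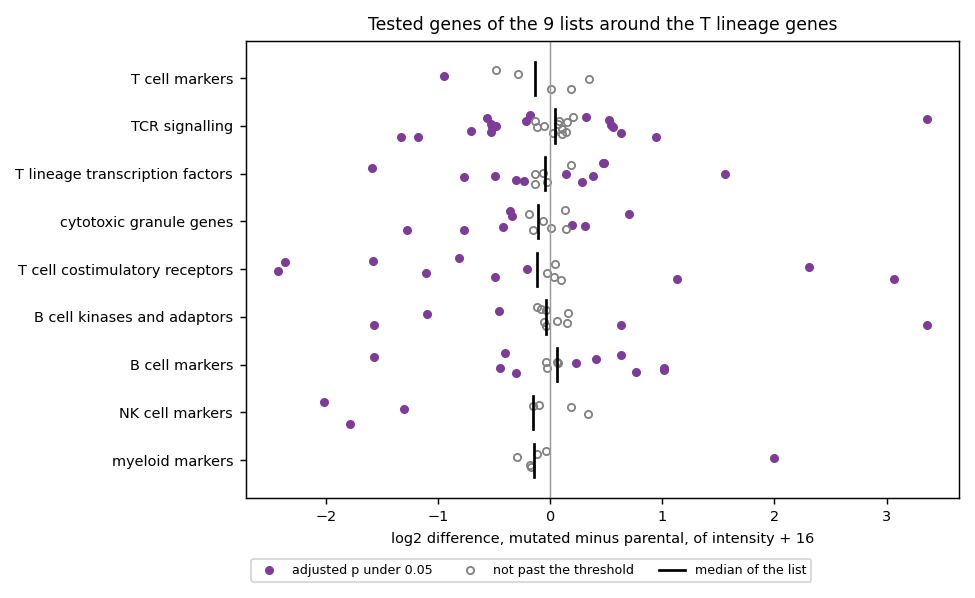
Log2 difference of intensity + 16, mutated minus parental, of each tested gene in the 9 lists; filled points passed an adjusted p under 0.05, open points did not, and black lines mark list medians. Medians lie between −0.15 and 0.06, and the genes beyond 2 on the log2 scale are PAG1, IL7R and LAG3 on the right and TIGIT, CD226 and XCL1 on the left.

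Neighbouring loci were looked at on both sides of each of the 9 genes, 3 per side in RefSeq order, 54 in all. Of these loci 11 had a tested probe set. Of the 11, 5 rose, 0 fell and 6 did not pass (limma; at an unadjusted p under 0.05 0 fell), where 30.1% of all genes tested were called higher and 18.9% lower, and none reached a log2 difference of 1. The 5 were PALD1 beside PRF1 (0.85), MARCKSL1 (0.70), MTMR9LP (0.28) and HDAC1 (0.22) beside LCK, and STXBP6 beside GZMB (0.24). The other tested neighbour of LCK, EIF3I (0.03), did not pass. SETD3, the one tested neighbour of BCL11B, had a log2 difference of 0.08 (SE 0.054; limma, adjusted p = 0.28), and TRAT1, BCL11A and CD28 had no tested neighbour.

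Across the 6 samples, the genes with values most like those of a member were found by the root mean square difference of log2(intensity + 16), which takes in the signal level as well as the pattern. Since signal also depends on the probe, a match is one of array signal and not of transcript abundance. For BCL11B these were TMEM45A (0.19), IL7R (0.23) and THSD7B (0.26). For TRAT1 they were ZNF223 (0.070), PDGFC (0.11) and GBP6 (0.15), and for LCK they were CRYBG1 (0.043), S100A6 (0.074) and DUSP5 (0.087). For 219498_s_at, the BCL11A probe set of highest mean log2 value, they were LINC01730 (0.050), LOC728743 (0.064) and CACNA1H (0.065). CRYBG1, for example, had 1153.51, 1152.71 and 1192.57 in mutated cells, against 2155.82, 2243.18 and 2160.59 in parental cells.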

How the data were processed

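The deposited table holds linear intensities that the authors computed for each probe set, from biotin-labelled cRNA per the labels' protocols. The sources used here do not state the summary method, background correction or scaling. Genes were named from the platform annotation (41091 probe sets with 1 symbol, 1801 with several, 11721 with none), updated through a RefSeq table of GRCh38.p14, which changed 0 symbols. Gene lists took only probe sets with 1 symbol.

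Values were transformed as log2(intensity + 16), which understates differences of dim genes. The dimmest 40% by mean over all 6 samples were left out, and 32768 probe sets were fitted with limma 3.58.1 (lmFit, eBayes, two-sided, group as the only term) in R 4.3.3, with Benjamini-Hochberg adjustment at 0.05. Differences of the 20 probe sets come from the same fit without the filter. The number of arrays limits the precision. The procedure was also run on simulated data with independent noise and few shifted probe sets. That setting is unlike these arrays, where 47.5% of tested probe sets were called, so it does not bear on those calls. Figures used matplotlib 3.10.9.

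The members and lists were chosen with earlier results of these data known. Named list genes were up to 2 higher and 2 lower per list, with the smallest adjusted p and no overlap between groups. Genes named beyond this rule were chosen after their values were seen. Upstream windows are RefSeq's, and each motif was searched on both strands. Alternatives were quantile normalization, median centring, no filter or 60%, pseudocounts of 1 and 64, trend and robust eBayes, a replicate block, other probe set choices and each sample left out.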

Additional observations from a re-analysis of the deposited data

How the results depend on the processing

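Over 16 alternatives, 297 of 316 recomputed counts of called probe sets or list members stayed within 1.5 times the value given, and 19 did not. Myeloid markers called lower were 1 in place of 0 with quantile normalization, median centring, the dimmest 60% left out, a pseudocount of 64, trend and robust eBayes, and averaging the probe sets of a gene. B cell kinases and adaptors called higher were 4 in place of 2 with the dimmest 60% left out, a pseudocount of 64, trend and robust eBayes and the mean over probe sets, and 5 without the suffixes _s_at and _x_at. Without these suffixes, T cell markers called lower were 0 in place of 1, T lineage transcription factors called higher 3 in place of 6, B cell markers called higher 2 in place of 6, and NK cell markers called lower 1 in place of 3; fewer genes were tested there. Without the filter, NK cell markers called higher were 1 in place of 0. The cause of the other shifts was not tested. With 1 sample left out, T cell markers called higher ranged from 0 to 1 (1 without parental replicate 1) and lower from 1 to 2 (2 without mutated replicate 3), and myeloid markers called lower from 0 to 1 (1 without mutated replicate 1). Probe sets called ranged from 8502 to 9928 higher and from 4314 to 5367 lower, against 10120 and 5433. Of the genes named by rule, PTPN7 lost its call without the suffixes. TRBC1, ID3, HES1, RAB27A, GZMK, FGR, CR2 and NCR3 gave values in 15 of the 16 alternatives, and among the values obtained no other call was lost and no direction changed.

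The replicate numbers pair the samples only in name: deviations from the group means correlated by 0.11, 0.027 and 0.11 between same-numbered samples, and each sample correlated best with its own number, a hint from the data and not from the design. With the replicate number as a block, 9685 probe sets were called higher and 5212 lower. Leaving out mutated replicate 2 gave −0.18 for PRF1 1553681_a_at, against −0.33 with all samples. The intensities have no detection calls, so values under the array medians carry little information on whether a gene is expressed.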
